A study of Mus musculus with 12 samples.

Results

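Expression of 10 genes that mark blood stem cells and endothelium, Tek, Tie1, Procr, Eng, Emcn, Robo4, Cd34, Ly6a, Hlf and Mecom, was followed in mouse granulocyte-monocyte progenitors (GMP) that differ in the transcription factor Runx1. They are 10 of the 30119 names on the array and were found by their gene name in the scanner files, which gave 13 of the 39429 probes. The choice was made by name, with earlier results of these data known, so counts over the 10 genes describe them and support nothing beyond them. Hlf and Mecom encode nuclear transcription factors, so the words surface gene hold for the other members only.

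The samples formed 4 groups on 12 arrays. RUNX1-ERt2 GMP (2 arrays) and ERt2 GMP (2 arrays) descended from marrow of Runx1fl/fl-Tg(vav-Cre) donors that had received 150 mg/kg 5-fluorouracil 3 days earlier. That marrow was infected with a MIG retrovirus for GFP with RUNX1-ERt2, a RUNX1 protein joined to a hormone-binding domain that tamoxifen switches on, or for GFP with ERt2, the domain without RUNX1. The infected cells were transplanted into lethally irradiated hosts, tamoxifen (49.5 µg/g body weight, 3 days) began after 6 weeks, and viable GFP-positive GMP were sorted 24 h after the course. The ko GMP (4 arrays) came straight from Runx1fl/fl-Tg(vav-Cre) mice and the wt GMP (4 arrays) from Runx1+/+-Tg(vav-Cre) mice, so every group carried the vav-Cre transgene, which is active across blood cells and, as background, also in part of the endothelium. RUNX1-ERt2 and ERt2 GMP therefore carried the deleted alleles of ko GMP and differed from ko and wt GMP also by drug, virus, transplantation and tamoxifen. Per the protocol only some mice received tamoxifen; each of the 4 transplanted samples is labelled with it, and those labels are used here. No source used here gives ages or ties arrays to single animals, so p-values reflect a spread among samples that could be technical.

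As background, blood stem cells and endothelial cells arise from a common embryonic source and share many surface proteins, among them angiopoietin receptors, the TGF-beta coreceptor endoglin, the protein C receptor and sialomucins. GMP are committed progenitors of neutrophils and monocytes. In the wt GMP here, 9 of the 10 genes were well above background on every array. Of all probes, 56.65% to 61.77% were well above background on a single wt array. GMP are commonly sorted as cells with CD34 and without Sca-1, the protein of Ly6a, on the surface; the labels cite a published sort without naming its markers, so a part of the sort itself in the Cd34 and Ly6a levels was not tested.

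Levels below are log2 processed intensities of one probe minus the 75th percentile of its array, so that a level of 0 is the brightness that 75% of probes lie under; a level of 1 probe is never set against that of another. Differences are on the same log2 scale with their SE from a limma fit over the 12 arrays, and a call means an adjusted p under 0.05 after Benjamini-Hochberg adjustment over 17905 genes. On each array 53.5% to 63.1% of probes were well above background, no spot was saturated, and the median processed signal was 40.2 to 54.4 on the transplanted arrays, against 61.4 to 92.5 on the ko and wt arrays. Slide 1 held replicates 1 and 2 of ko and wt GMP, and slide 2 their replicates 3 and 4. The protocol named in the file headers was GE1_105_Jan09 for the slide 2 arrays and GE1_107_Sep09 for all other arrays. Slide and protocol therefore cannot be told apart among ko and wt GMP, and values given by slide are also values by protocol. ERt2 and RUNX1-ERt2 GMP lay on slide 3 and slide 4, so for them slide and group cannot be told apart. In these bulk samples fewer cells of a type and less RNA per cell cannot be told apart either. The Runx1 signal itself was higher in ko GMP, at 2.87 to 4.20 on the 4 arrays, than in wt GMP, at 1.18 to 2.23 (difference 1.69 ± 0.17, limma adjusted p = 0.00025). In transplanted GMP the Runx1 signal was lower with RUNX1-ERt2 than with ERt2 (-1.09 ± 0.24, limma adjusted p = 0.0123). No source used here places its 2 probes inside or outside the floxed segment, so the signal is no check of the deletion, and ko and wt stand throughout for the arrays labelled so.

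In ko GMP, 5 of the 9 members tested were higher than in wt GMP (Tek, Tie1, Eng, Emcn and Robo4) and 2 were lower (Procr and Cd34), while Ly6a and Hlf did not pass. Among all genes tested, 11.5% were called higher and 13.8% lower in that comparison. The same 5 and 2 members had ko and wt arrays that did not overlap, which was so for 10.1% of all genes upward and 13.2% downward. The median difference of the 9 members was 0.77, against -0.05 over all genes. Mecom was not tested, since no group had one of its 3 probes well above background throughout. When RUNX1-ERt2 GMP were set against ERt2 GMP, only Procr was called, higher, where 10.2% of all genes were called higher and 8.87% lower. The plot of levels by array shows all 10 genes.

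**Figure D1:**
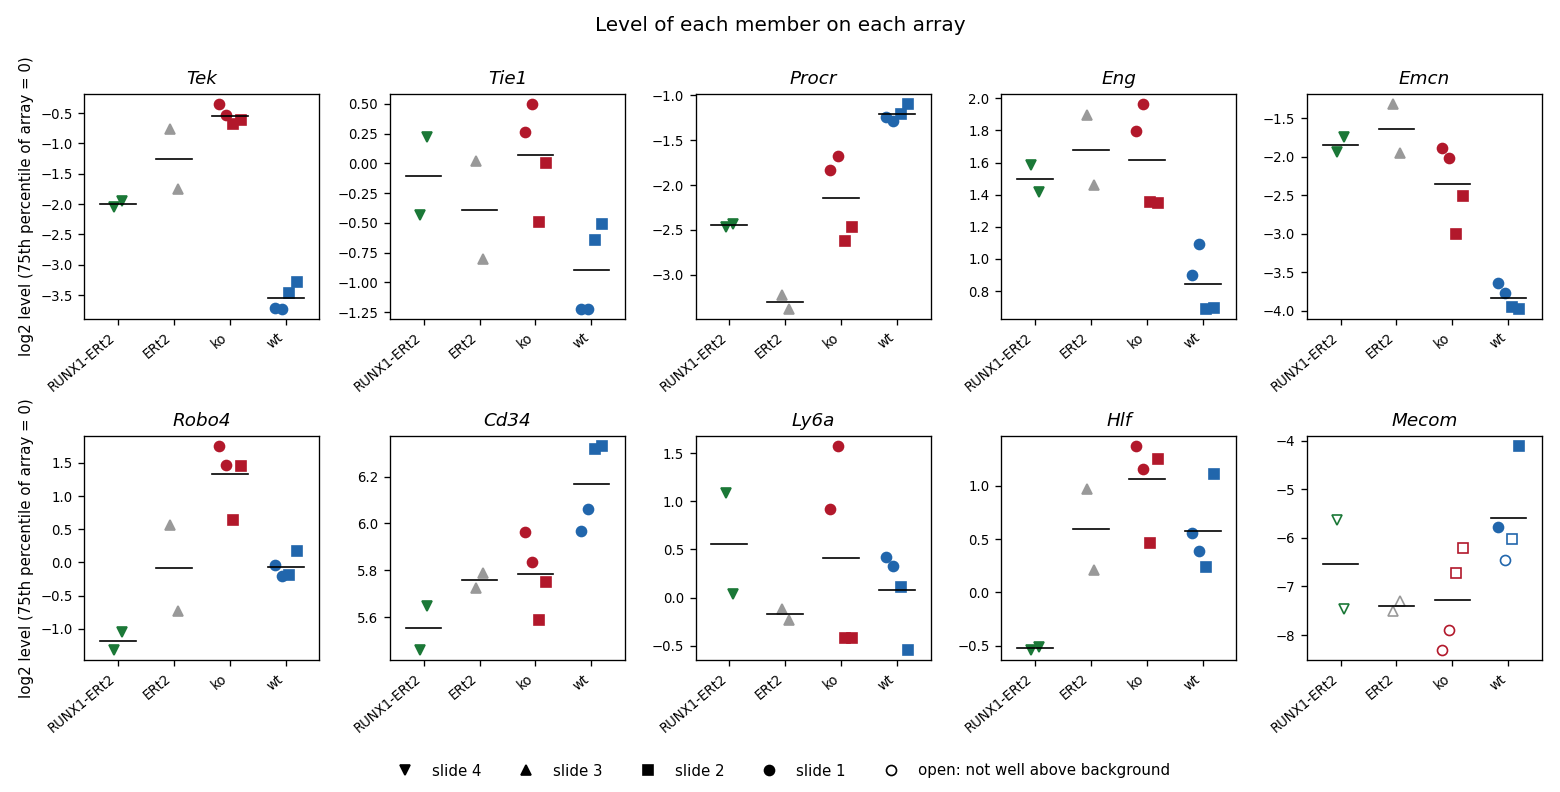
Level of each member on each array (vertical axis, log2 with the 75th percentile of the array at 0; each panel has its own scale) in RUNX1-ERt2, ERt2, ko and wt GMP. Symbols give the slide, open symbols a probe not well above background, and black bars the group mean (2, 2, 4 and 4 arrays); Tek, Emcn, Eng and Robo4 lie higher on all 4 ko arrays than on any wt array, and Procr lower. Of the Cd34 and Mecom probes the brightest is drawn.

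Tek encodes the receptor of the angiopoietins (Tie2), a tyrosine kinase of endothelium and of stem cells at rest. Tie1 encodes its close relative, which has no ligand of its own known with certainty and joins Tek in a complex. The array has 1 probe for each, at chr4:94540624-94540683 (plus strand) and chr4:118144132-118144191 (minus strand) of mm9. The probes are shown because the genes are paralogs and a shared sequence could let one RNA bind both; capitals mark bases identical between them when the second is shifted by 3 bases:
Tek: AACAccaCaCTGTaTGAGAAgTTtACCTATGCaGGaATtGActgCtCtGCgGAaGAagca
Tie1: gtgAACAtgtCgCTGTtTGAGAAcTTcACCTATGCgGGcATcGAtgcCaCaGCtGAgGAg
Over the 57 bases that overlap, 39 (68.4%) were identical.

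Tek stood at -2.06 and -1.94 on the RUNX1-ERt2 arrays and at -0.75 and -1.75 on the ERt2 arrays. It stood at -0.36, -0.53, -0.69 and -0.61 on the ko arrays, against -3.71, -3.72, -3.46 and -3.28 on the wt arrays. All 4 ko arrays were far above all 4 wt arrays, and the transplanted arrays lay between them without overlap. The rise in ko GMP was 3.00 ± 0.20, or 7.99-fold (limma adjusted p = 3.28e-05), and it was 3.27 on slide 1 and 2.72 on slide 2. RUNX1-ERt2 GMP had a difference of -0.75 ± 0.29 from ERt2 GMP (95% interval -1.40 to -0.10, limma adjusted p = 0.105). The ERt2 arrays lay far apart, and the difference was -1.25 (limma adjusted p = 0.00849) without ERt2 replicate 2 and -0.25 (adjusted p = 0.524) without ERt2 replicate 1.

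Tie1 stood at -0.43 and 0.22 on the RUNX1-ERt2 arrays, against 0.02 and -0.80 on the ERt2 arrays. It stood at 0.27, 0.49, -0.49 and 0.00 on the ko arrays, against -1.22, -1.22, -0.64 and -0.51 on the wt arrays. The ko and wt arrays met almost edge to edge, ko replicate 3 against wt replicate 4, and the transplanted arrays overlapped. Tie1 rose by 0.97 ± 0.29 in ko GMP (1.95-fold, limma adjusted p = 0.0407), within slide 1 by 1.60 and within slide 2 by 0.33. The call ended within slide 2, with normexp, another background correction (adjusted p = 0.0916), with no filter on dim probes (0.0739), under the replicate block, a term for the replicate number (0.0944), and without any 1 of wt replicates 1, 2 and 3 or ko replicates 1, 2 and 4 (0.79 to 1.07, adjusted p 0.055 to 0.118). Between RUNX1-ERt2 and ERt2 GMP it differed by 0.29 ± 0.42 (95% interval -0.65 to 1.23, limma adjusted p = 0.705).

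Among 5 tested genes of angiopoietin and Tie signalling other than the pair, 2 were called higher and none lower in ko GMP (median 0.30). They were Dok2, an adaptor that binds activated Tek (1.76 ± 0.24, limma adjusted p = 0.00126), and Tnip2, another adaptor that binds Tek (0.42 ± 0.12, limma adjusted p = 0.0307). Dok2 was also called in RUNX1-ERt2 GMP, lower than in ERt2 GMP by a log2 difference of -1.83 ± 0.34 (limma adjusted p = 0.00563). The activating ligand Angpt1 had a difference of 0.30 ± 0.23 between ko and wt GMP and was not called (limma adjusted p = 0.384), while Angpt2 was nowhere well above background.

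Eng encodes endoglin, a coreceptor for TGF-beta and BMP ligands, and its probe lies at chr2:32537268-32537327 (plus strand, mm9). Its level was 1.58 and 1.41 on the RUNX1-ERt2 arrays and 1.90 and 1.46 on the ERt2 arrays. It was 1.80, 1.96, 1.35 and 1.35 on the ko arrays, against 0.90, 1.09, 0.69 and 0.69 on the wt arrays. Every ko, ERt2 and RUNX1-ERt2 array lay above every wt array, and those 3 groups overlapped. Eng rose by 0.77 ± 0.11 in ko GMP (1.71-fold, limma adjusted p = 0.0017), within slide 1 by 0.88 and within slide 2 by 0.66. The difference between RUNX1-ERt2 and ERt2 GMP was -0.18 ± 0.16 (95% interval -0.54 to 0.18, limma adjusted p = 0.5), and it was 0.038 without ERt2 replicate 1.

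Of 17 other tested genes of endoglin and TGF-beta or BMP receptor signalling, 7 were called higher and 1 lower in ko GMP (median 0.25). Those with the largest differences were Id1, a BMP-induced inhibitor of E proteins (1.46 ± 0.31, limma adjusted p = 0.00919), the type II TGF-beta receptor Tgfbr2 (0.95 ± 0.20, adjusted p = 0.00838) and the signal carrier Smad1 (0.68 ± 0.15, adjusted p = 0.0105). Id2, a relative of Id1, fell by 0.91 (SE 0.17, limma adjusted p = 0.00506), with ko and wt arrays that overlapped. In RUNX1-ERt2 against ERt2 GMP 1 was called higher, the inhibitor Smad7 (1.09 ± 0.32, limma adjusted p = 0.0433, well above background in 1 of 2 ERt2 samples), and 2 were called lower, the ligand Tgfb1 (-0.63 ± 0.17, adjusted p = 0.0293) and Smad3 (-0.57 ± 0.12, adjusted p = 0.0114). Tgfb1 and Smad3 were both called higher in ko GMP (0.66 ± 0.12 and 0.37 ± 0.09, limma adjusted p = 0.00459 and 0.0157).

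Procr encodes the endothelial protein C receptor, which presents protein C for activation and marks long-term stem cells; its probe lies at chr2:155580945-155581004 (plus strand, mm9). It stood at -2.47 and -2.43 on the RUNX1-ERt2 arrays, against -3.22 and -3.37 on the ERt2 arrays. It stood at -1.83, -1.68, -2.62 and -2.46 on the ko arrays, against -1.25, -1.29, -1.22 and -1.10 on the wt arrays. The wt arrays were the highest and nearly equal, the ERt2 arrays the lowest, and the ko arrays fell into a higher pair on slide 1 and a lower pair on slide 2. Procr fell by 0.94 in ko GMP (SE 0.17, 1.91-fold lower, limma adjusted p = 0.00467), and the difference was -0.49 within slide 1 and -1.38 within slide 2. It rose by 0.85 ± 0.24 in RUNX1-ERt2 against ERt2 GMP (1.80-fold, limma adjusted p = 0.0351). It was the 1 member called in both comparisons with opposite signs, as were 4.55% of all genes. The call in transplanted GMP ended with the replicate block (adjusted p = 0.0907), with 5 other settings given under the processing, and without any 1 of the 4 arrays (0.77 to 0.93, adjusted p 0.0896 to 0.148), so the direction held and the call did not.

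In the protein C pathway 5 of 9 other tested genes were called higher and none lower in ko GMP (median 0.76). F2r, a thrombin receptor that activated protein C also cleaves, rose by 2.65 ± 0.25 (limma adjusted p = 0.000208), and S1pr1, a sphingosine phosphate receptor in the same route, by 1.51 ± 0.36 (adjusted p = 0.0154). F2rl2, another protease-activated receptor, was not well above background on any wt array and was at least 4.52-fold higher in ko GMP (limma adjusted p = 0.0046). F8, a coagulation factor that activated protein C inactivates, was called too (1.59 ± 0.45, limma adjusted p = 0.0313), with overlapping arrays and a signal well above background in only 1 of 4 wt samples. Thbd, thrombomodulin, the partner of the receptor in protein C activation, was higher by 0.76 ± 0.11 in ko GMP (limma adjusted p = 0.00191), with overlapping arrays. Thbd was lower in RUNX1-ERt2 than in ERt2 GMP (-1.60 ± 0.16, limma adjusted p = 0.000181), without overlap. In that second comparison 1 gene of the list was higher, Pros1, the cofactor protein S (1.12 ± 0.33, limma adjusted p = 0.0461). The lower ones beside Thbd were the coagulation factor F5 (-1.66 ± 0.50, adjusted p = 0.0474) and the thrombin receptor F2rl3 (-0.85 ± 0.18, adjusted p = 0.0093). Procr thus had the opposite sign to Thbd in both comparisons.

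Robo4 encodes a roundabout receptor of endothelium and stem cells, with a probe at chr9:37221547-37221606 (plus strand, mm9). Its level was -1.32 and -1.05 on the RUNX1-ERt2 arrays and 0.56 and -0.73 on the ERt2 arrays. It was 1.76, 1.48, 0.64 and 1.46 on the ko arrays, against -0.04, -0.21, -0.19 and 0.17 on the wt arrays. The ko arrays were highest and the RUNX1-ERt2 arrays lowest, and the ERt2 arrays lay on either side of the wt arrays. Robo4 rose by 1.40 ± 0.30 in ko GMP (2.64-fold, limma adjusted p = 0.00985), within slide 1 by 1.74 and within slide 2 by 1.06 (adjusted p = 0.148). RUNX1-ERt2 GMP differed from ERt2 GMP by -1.10 ± 0.42 (95% interval -2.05 to -0.15, limma adjusted p = 0.107). Without ERt2 replicate 2 that difference was -1.75 (adjusted p = 0.0218), and without ERt2 replicate 1 it was -0.45 (adjusted p = 0.52).

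Of 6 other tested genes of Slit and Robo signalling, 4 were called higher and none lower in ko GMP (median 0.61): the receptor Robo3 (2.20 ± 0.57, limma adjusted p = 0.0223), the Slit-Robo GTPase activators Srgap1 (2.13 ± 0.30, adjusted p = 0.00149, well above background in 3 of 4 wt samples) and Srgap2 (0.54 ± 0.17, adjusted p = 0.0459), and the adhesion protein vinculin, Vcl (0.46 ± 0.13, adjusted p = 0.0288). Srgap2 was lower in RUNX1-ERt2 than in ERt2 GMP (-1.01 ± 0.24, limma adjusted p = 0.0184), the 1 call of the list there. The ligand Slit1 was not called in ko GMP (0.19 ± 0.19, limma adjusted p = 0.501), and neither Robo1 nor Robo2 reached a signal well above background.

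Emcn encodes endomucin, a sialomucin of venous endothelium and stem cells, with a probe at chr3:137086389-137086448 (plus strand, mm9). It stood at -1.94 and -1.74 on the RUNX1-ERt2 arrays and at -1.32 and -1.95 on the ERt2 arrays. It stood at -1.89, -2.02, -3.01 and -2.51 on the ko arrays, against -3.64, -3.76, -3.95 and -3.97 on the wt arrays. All 8 arrays of GMP with deleted alleles were above all 4 wt arrays, and the transplanted arrays overlapped the higher ko arrays. The rise in ko GMP was 1.47 ± 0.18 (2.78-fold, limma adjusted p = 0.000652), or 1.75 within slide 1 and 1.20 within slide 2. With normexp background correction it was 0.62 and no longer called (adjusted p = 0.155). Normexp was run with an offset of 50 intensity units, where the wt processed signals were 60.0 to 118 for Emcn and 96.8 to 117 for Tek. Between RUNX1-ERt2 and ERt2 GMP the difference was -0.21 ± 0.25 (95% interval -0.77 to 0.36, limma adjusted p = 0.633), and it was 0.10 without ERt2 replicate 1.

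Cd34 encodes the sialomucin that is itself a marker of stem and progenitor cells. Its tested probe, at chr1:196787392-196787451 (plus strand, mm9), stood at 5.46 and 5.65 on the RUNX1-ERt2 arrays and at 5.72 and 5.79 on the ERt2 arrays. It stood at 5.96, 5.84, 5.59 and 5.75 on the ko arrays, against 5.97, 6.06, 6.32 and 6.33 on the wt arrays. The groups were close, and ko replicate 1 (5.962) lay just under wt replicate 1 (5.966). Cd34 fell by 0.39 in ko GMP (SE 0.12, 1.31-fold lower, limma adjusted p = 0.0417), and the difference was -0.12 within slide 1 and -0.66 within slide 2. The call ended within slide 1, under the replicate block (adjusted p = 0.0924), with the other settings given under the processing, and without any 1 of wt replicates 2, 3 and 4 or ko replicates 2, 3 and 4 (-0.42 to -0.30, adjusted p 0.0711 to 0.11). The other Cd34 probe, at chr1:196785280-196785339, differed by -0.21 ± 0.15 between ko and wt GMP with overlapping arrays (95% interval -0.55 to 0.13). Between RUNX1-ERt2 and ERt2 GMP the tested probe differed by -0.20 ± 0.17 (95% interval -0.58 to 0.17, limma adjusted p = 0.463).

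Among 7 other tested sialomucins and their partners, 2 were called higher and 1 lower in ko GMP (median 0.33). Podxl, podocalyxin, a close relative of CD34, rose by 3.93 ± 0.62 (limma adjusted p = 0.00258), although only 1 of 4 wt arrays had it well above background, and the platelet and endothelial adhesion receptor Selp by 2.18 ± 0.23 (adjusted p = 0.000358). Selplg, the ligand of Selp, fell by 0.37 (SE 0.12, limma adjusted p = 0.0479) with overlapping arrays. Podxl was at least 14.7-fold higher in RUNX1-ERt2 than in ERt2 GMP (limma adjusted p = 0.00649), where it was not well above background on either ERt2 array, and Selp was lower (-1.58 ± 0.33, adjusted p = 0.0103). Podxl thus had the same sign in both comparisons and Selp opposite signs.

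Ly6a encodes Sca-1, a lipid-anchored protein of stem cells, with a probe at chr15:74825553-74825612 (minus strand, mm9). It stood at 1.09 and 0.03 on the RUNX1-ERt2 arrays and at -0.11 and -0.24 on the ERt2 arrays. It stood at 0.92, 1.58, -0.42 and -0.42 on the ko arrays, against 0.42, 0.33, 0.11 and -0.54 on the wt arrays. The ko arrays split by slide, both of slide 1 above all wt arrays and both of slide 2 below 3 of them. The difference between ko and wt GMP was 0.34 ± 0.30 (95% interval -0.34 to 1.01, limma adjusted p = 0.454), or 0.87 within slide 1 and -0.20 within slide 2. RUNX1-ERt2 GMP differed from ERt2 GMP by 0.73 ± 0.42 (95% interval -0.22 to 1.69, limma adjusted p = 0.279); the RUNX1-ERt2 arrays lay far apart.

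In the Ly6 family 1 of 10 other tested genes was called higher in ko GMP and 3 lower (median -0.25). Ly6c1, a surface antigen of monocytes and endothelium, fell by 2.40 (SE 0.41, limma adjusted p = 0.00372), Ly6k by 3.29 (SE 0.37, adjusted p = 0.000443, well above background in only 2 of 4 ko samples) and Lynx1, a modulator of nicotinic receptors, by 1.05 (SE 0.20, adjusted p = 0.00601). Lypd3 was at least 2.13-fold higher in ko GMP (limma adjusted p = 0.0125) and not well above background on any wt array. No gene of the family was called in RUNX1-ERt2 against ERt2 GMP by limma; the smallest p was that of Ly6i (-1.47 ± 0.47, adjusted p = 0.0575, well above background in 1 of 2 RUNX1-ERt2 samples).

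Hlf encodes a PAR bZIP factor that keeps stem cells from dividing, with a probe at chr11:90200696-90200755 (minus strand, mm9). It stood at -0.54 and -0.51 on the RUNX1-ERt2 arrays, against 0.97 and 0.21 on the ERt2 arrays. It stood at 1.38, 1.16, 0.47 and 1.25 on the ko arrays, against 0.55, 0.39, 0.24 and 1.11 on the wt arrays. The RUNX1-ERt2 arrays were lower than all 10 others, whereas ko and wt arrays overlapped. The difference between ko and wt GMP was 0.49 ± 0.26 (95% interval -0.10 to 1.09, limma adjusted p = 0.208), or 0.80 within slide 1 and 0.18 within slide 2. RUNX1-ERt2 GMP differed from ERt2 GMP by -1.12 ± 0.37 (95% interval -1.96 to -0.28, limma adjusted p = 0.0679), which passed with the replicate block (adjusted p = 0.0326) and when arrays were scaled to their median (-1.19, adjusted p = 0.0271).

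Of 8 relatives and clock partners of Hlf, 1 was called higher in ko GMP, the PAR bZIP factor Dbp (0.46 ± 0.11, limma adjusted p = 0.0163), and 2 lower, its competitor Nfil3 (-1.03 ± 0.22, adjusted p = 0.00985) and the clock gene Per2 (-1.0 ± 0.17, adjusted p = 0.00368), with a median of 0.10. Per2 was higher in RUNX1-ERt2 than in ERt2 GMP (1.01 ± 0.24, limma adjusted p = 0.0186) and Per3 lower (-1.38 ± 0.29, adjusted p = 0.0106).

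Mecom encodes the zinc finger factor Evi1 and its longer form Mds1-Evi1, needed by stem cells. Its brightest probe, at chr3:30135491-30135550 (minus strand, mm9), was well above background on wt replicates 1 and 4 and on no other array. It read 5.75 and 20.0 intensity units on the RUNX1-ERt2 arrays, 5.28 and 5.37 on the ERt2 arrays, 4.83 to 15.2 on the ko arrays, and 17.5 to 54.7 on the wt arrays. The ko and wt levels overlapped and the probe was not tested. The other Mecom probes, at chr3:29876185-29876244 and chr3:30445665-30445724, were nowhere well above background. Mecom was listed with 8 tested genes of the PRDM family and the corepressors Ctbp1, Ctbp2 and Hdac1. Among those 11 genes 1 was called higher in ko GMP, Prdm2 (0.28 ± 0.08, limma adjusted p = 0.036), and none lower (median 0.00). In RUNX1-ERt2 against ERt2 GMP 1 of them was higher, Prdm10, at least 1.31-fold (limma adjusted p = 0.0217), and 1 lower.

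**Figure D2:**
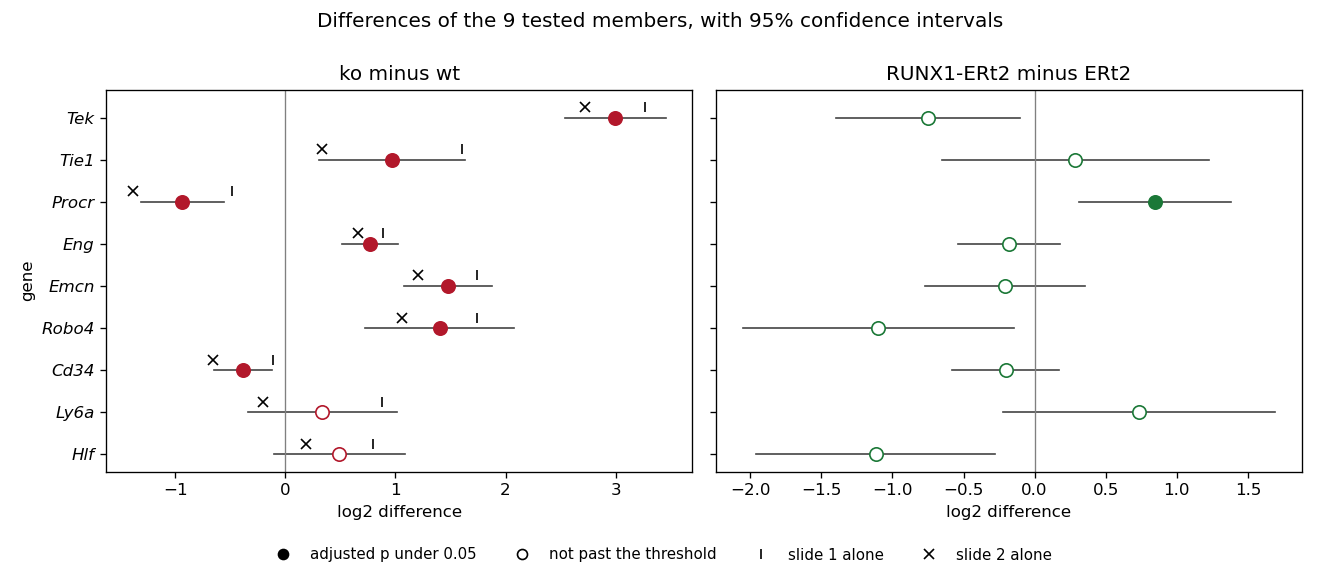
Log2 differences of the 9 tested members in ko minus wt GMP (left) and RUNX1-ERt2 minus ERt2 GMP (right), with 95% confidence intervals; filled points passed an adjusted p of 0.05. Ticks and crosses on the left are the differences within slide 1 and slide 2: Tek (3.27 and 2.72) is far from 0 on both, whereas Ly6a (0.87 and -0.20) changes sign.

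Since Runx1 is a DNA-binding factor, the promoter windows of the members were searched on both strands for RUNX motifs (TGTGGT and TGCGGT) and for motifs of GATA factors (AGATAA and TGATAA) and ETS factors (AGGAAG and CCGGAA), which act with it at many blood and endothelial genes. RefSeq windows of 300 bases (build GRCm38.p6), with 250 bases before the start of the gene, were on hand for 9 members; Mecom has 2 windows. Neither RUNX motif was present in any of the 10 windows, where 16.8% (TGTGGT) and 6.45% (TGCGGT) of 32851 windows of the same length hold it. AGGAAG was present in the windows of Tie1, Eng, Emcn, Robo4 and Cd34, and in 35.4% of all windows. AGATAA was present for Tek (11.2% of all windows), TGATAA for Emcn and Mecom (9.05%), and CCGGAA for Hlf (14.9%). A match is a description of letters, and their absence from a window says nothing on binding there or elsewhere. The windows of 4 members called higher in ko GMP and of Procr, called lower, follow so that the letters can be read beside the differences, 5′ to 3′ on the strand of the gene, with every motif match on either strand in capitals. They are chr4:94739039-94739338 for Tek, chr3:137340828-137341127 for Emcn, chr2:32646345-32646644 for Eng, chr9:37401722-37402021 for Robo4 and chr2:155750967-155751266 for Procr, all on the plus strand:
Tek: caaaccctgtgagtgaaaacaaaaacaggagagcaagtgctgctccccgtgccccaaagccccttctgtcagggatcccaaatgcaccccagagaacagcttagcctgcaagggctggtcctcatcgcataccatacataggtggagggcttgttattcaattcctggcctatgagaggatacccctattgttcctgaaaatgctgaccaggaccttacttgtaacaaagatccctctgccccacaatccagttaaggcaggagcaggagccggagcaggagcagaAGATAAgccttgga
Emcn: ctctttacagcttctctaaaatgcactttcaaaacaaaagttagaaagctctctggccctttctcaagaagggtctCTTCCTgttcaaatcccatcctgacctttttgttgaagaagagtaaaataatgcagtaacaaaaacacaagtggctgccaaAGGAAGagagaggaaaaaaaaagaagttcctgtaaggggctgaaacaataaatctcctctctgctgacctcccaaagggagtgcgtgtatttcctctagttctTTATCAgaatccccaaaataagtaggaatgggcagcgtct
Eng: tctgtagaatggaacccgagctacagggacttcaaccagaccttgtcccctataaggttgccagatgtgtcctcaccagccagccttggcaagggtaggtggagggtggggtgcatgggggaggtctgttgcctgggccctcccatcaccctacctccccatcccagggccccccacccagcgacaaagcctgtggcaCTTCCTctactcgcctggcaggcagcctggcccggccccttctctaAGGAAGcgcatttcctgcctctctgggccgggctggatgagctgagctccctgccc
Robo4: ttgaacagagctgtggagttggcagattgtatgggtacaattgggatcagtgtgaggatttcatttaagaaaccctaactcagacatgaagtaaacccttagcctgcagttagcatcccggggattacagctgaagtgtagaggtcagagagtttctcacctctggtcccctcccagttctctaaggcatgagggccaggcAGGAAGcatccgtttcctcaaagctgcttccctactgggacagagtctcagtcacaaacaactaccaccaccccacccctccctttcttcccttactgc
Procr: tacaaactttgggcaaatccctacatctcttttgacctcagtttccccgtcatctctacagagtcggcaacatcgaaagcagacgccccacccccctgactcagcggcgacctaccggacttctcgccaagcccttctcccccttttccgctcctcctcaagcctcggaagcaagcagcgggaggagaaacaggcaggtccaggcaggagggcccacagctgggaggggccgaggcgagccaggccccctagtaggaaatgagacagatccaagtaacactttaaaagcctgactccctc
The GATA match of Tek begins 36 bases after the start of the gene, and that of Emcn, on the opposite strand, 10 bases after it. The Procr window had no match, and neither had the Mecom window at chr3:30013155-30013454. The window of Cd34, also called lower in ko GMP, held AGGAAG and is not printed. A relation between matches and the direction of a difference was not tested.

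The difference between the systems was tested directly, as the RUNX1-ERt2 minus ERt2 difference less the wt minus ko difference, which share no array. A value of 0 would mean that RUNX1-ERt2 moved a gene as far as the intact Runx1 alleles did. Tek had 2.25 ± 0.35 (limma adjusted p = 0.00288) and Emcn 1.26 ± 0.31 (adjusted p = 0.0211), so both were less low in RUNX1-ERt2 relative to ERt2 GMP than in wt relative to ko GMP. Those 2 of 9 members were called higher and none lower, where 9.42% of all genes were called higher and 8.75% lower; at an unadjusted p under 0.05 the counts were 4 and 1, where 16.1% and 16.3% of all genes passed. With normexp background correction both calls ended, with Tek at 1.42 (limma adjusted p = 0.123) and Emcn at 0.43 (adjusted p = 0.651). The Emcn call also ended with no slide term (adjusted p = 0.0752), with the replicate block (adjusted p = 0.0507), without ERt2 replicate 2 (0.95, adjusted p = 0.0926) and without RUNX1-ERt2 replicate 2 (1.17, adjusted p = 0.0848). For Procr the value was -0.09 ± 0.29 (95% interval -0.74 to 0.57, limma adjusted p = 0.873), for Robo4 0.30 ± 0.52 (95% interval -0.87 to 1.47) and for Eng 0.59 ± 0.19 (adjusted p = 0.0659), the last passing without ERt2 replicate 1 (0.81, adjusted p = 0.0206). In transplanted GMP none of the 9 was called lower in RUNX1-ERt2 than in ERt2 GMP by limma, and 3 were at an unadjusted p under 0.05 (Tek, Robo4 and Hlf), where 15.0% of all genes were. Arrays of the 2 groups did not overlap for 2 members upward (Procr and Ly6a) and 4 downward (Tek, Robo4, Cd34 and Hlf), as was so for 29.1% and 29.8% of all genes. The members' median was -0.20, against 0.00 over all genes.

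**Figure D3:**
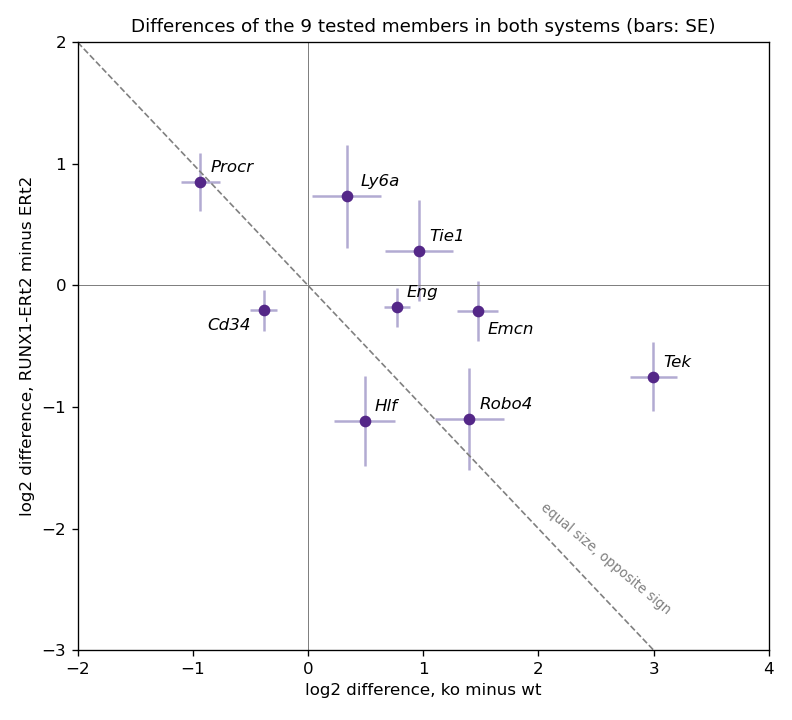
Log2 difference in RUNX1-ERt2 minus ERt2 GMP (vertical axis) against that in ko minus wt GMP (horizontal axis) for the 9 tested members, with SE bars. On the dashed line both differences have one size and opposite signs: Procr (0.85 and -0.94) and Robo4 (-1.10 and 1.40) lie near it, and Tek (-0.75 and 3.00) and Emcn (-0.21 and 1.47) above it.

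ERt2 GMP and ko GMP both carried the deleted alleles, and the members still differed between them. Emcn was higher in ERt2 GMP (0.72 ± 0.22, limma adjusted p = 0.0184), the 1 member of 9 called higher where 30.2% of all genes were. Tek (-0.71 ± 0.25, limma adjusted p = 0.0355), Procr (-1.15 ± 0.21, adjusted p = 0.00133) and Robo4 (-1.42 ± 0.37, adjusted p = 0.00916) were lower, 3 of 9 where 26.7% of all genes were. Drug, virus, transplantation, tamoxifen and slide cannot be told apart in this comparison. The Procr call held in all 17 other settings, with a difference of -0.64 under normexp. The Tek call ended with normexp (adjusted p = 0.217), scaling to the array median (0.0809), the authors' series matrix (0.0726), only the arrays compared (0.0916) and the replicate block (0.0525), and without any 1 of ko replicates 1, 2 and 4 or ERt2 replicate 2 (-0.74 to -0.21, adjusted p 0.0515 to 0.421). The Emcn call ended with normexp (adjusted p = 0.136), with no slide term (0.0639), with only the arrays compared (0.0521) and without ERt2 replicate 1 (0.41, adjusted p = 0.192), and the Robo4 call without ERt2 replicate 2 (-0.77, adjusted p = 0.11).

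RUNX1-ERt2 GMP were set beside wt GMP last, again across systems. Tek (1.54 ± 0.25, limma adjusted p = 0.00103), Eng (0.65 ± 0.14, adjusted p = 0.00432) and Emcn (1.99 ± 0.22, adjusted p = 0.00011) were higher in RUNX1-ERt2 GMP, 3 of 9 members where 21.9% of all genes were. With normexp Tek was at 0.84 and no longer called (limma adjusted p = 0.0962), and Emcn was at 1.08 and called. Procr (-1.23 ± 0.21, limma adjusted p = 0.00124), Robo4 (-1.12 ± 0.37, adjusted p = 0.0328), Cd34 (-0.62 ± 0.14, adjusted p = 0.00757) and Hlf (-1.10 ± 0.32, adjusted p = 0.0211) were lower, 4 of 9 where 24.1% of all genes were. Relative to wt GMP, Tek, Eng and Emcn were thus called higher both in ko GMP and in RUNX1-ERt2 GMP, 2 comparisons that share the wt arrays. With normexp the Tek call ended in RUNX1-ERt2 GMP and the Emcn call in ko GMP (0.62, limma adjusted p = 0.155), so only Eng kept both calls. Robo4 was higher in ko GMP and lower in RUNX1-ERt2 GMP. The Robo4 call ended with normexp (adjusted p = 0.0615), with no filter on dim probes (0.06) and without any 1 of wt replicates 1, 3 and 4 or either RUNX1-ERt2 array (-1.25 to -0.98, adjusted p 0.0559 to 0.164), the Hlf call without either RUNX1-ERt2 array (-1.08 and -1.11, adjusted p = 0.0942 and 0.0866), and the Cd34 call without RUNX1-ERt2 replicate 1 (-0.52, adjusted p = 0.0687). With the mean over both Cd34 probes the difference was -0.19 and not called (limma adjusted p = 0.323), and the other probe alone had 0.23 ± 0.18, the opposite sign.

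Of 27 other endothelial markers, 8 had no array on which they stood well above background: the junction proteins Cdh5 and Cldn5, the lymphatic genes Flt4 and Lyve1, the transcription factors Sox7 and Sox17, the phosphatase Ptprb, and Mmrn2. Of the 18 tested, 5 were called higher and 2 lower in ko GMP, with a median of -0.06, and their mean level was -2.32 to -2.01 on the ko arrays, against -2.26 to -2.03 on the wt arrays. The VEGF receptor Kdr (-0.18 ± 0.09, limma adjusted p = 0.2) and the adhesion molecule Pecam1 (-0.06 ± 0.14, adjusted p = 0.78) were not called in ko GMP. Among those called higher were the signalling adaptor She (4.11 ± 0.52, adjusted p = 0.000867, well above background in 2 of 4 wt samples) and the ETS factor Erg (0.87 ± 0.23, adjusted p = 0.0249). Esm1 was at least 3.03-fold higher in wt than in ko GMP (limma adjusted p = 0.000216), and Ramp2 fell by 0.95 in ko GMP (SE 0.25, adjusted p = 0.0244). In RUNX1-ERt2 against ERt2 GMP 2 were higher, Esm1 (3.74 ± 0.30, limma adjusted p = 5.33e-05) and Tal1 (0.93 ± 0.26, adjusted p = 0.0324), and 3 lower, Egfl7 (-1.47 ± 0.20, adjusted p = 0.00105), Stab2 (-1.74 ± 0.50, adjusted p = 0.0397) and Aplnr, which was not well above background in either group. Esm1 was well above background in 1 of 2 ERt2 samples and Stab2 in 1 of 2 RUNX1-ERt2 samples.

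Of 26 other stem cell markers tested, 11 were called higher and 2 lower in ko GMP (median 0.77), among them the junction protein Jam3 (6.32 ± 0.38, limma adjusted p = 1.93e-05), the SLAM receptor Slamf1 (2.96 ± 0.36, adjusted p = 0.000668) and the adhesion molecule Esam (2.93 ± 0.41, adjusted p = 0.00135). Their mean level was 0.83 to 1.06 on the ko arrays, against -0.19 to 0.28 on the wt arrays. In RUNX1-ERt2 against ERt2 GMP 4 were higher and 4 lower, the largest being Ifitm1 (2.65 ± 0.31, limma adjusted p = 0.000423), Gfi1b (2.04 ± 0.47, adjusted p = 0.0157), Ctnnal1 (1.75 ± 0.18, adjusted p = 0.000201) and Cish (1.66 ± 0.26, adjusted p = 0.00246). Tek and Slamf1 are also known in megakaryocyte progenitors. Of 14 tested megakaryocyte markers 8 were called higher and none lower in ko GMP (median 1.96), with a mean level of 0.35 to 1.21 on the ko arrays, against -1.61 to -0.84 on the wt arrays, and in RUNX1-ERt2 against ERt2 GMP 1 was higher and 3 lower. All 14 GMP markers were well above background throughout; 7 were called lower and none higher in ko GMP (median -0.88), and 5 lower and none higher in RUNX1-ERt2 against ERt2 GMP (median -1.01). Interferon response genes (Ly6a is itself induced by interferon, as background) were called higher for 11 of 16 in ko GMP (median 1.11). Of erythroid, stroma and lymphoid markers 3 of 11, 0 of 5 and 0 of 12 were higher and 1, 1 and 3 lower in ko GMP. In RUNX1-ERt2 against ERt2 GMP 3 of 11 erythroid markers were higher and none lower (median 1.93), with a mean level of 2.42 to 2.93 on the RUNX1-ERt2 arrays, against 0.50 to 1.65 on the ERt2 arrays. There 1 interferon response gene was higher and 5 lower (median -0.61), with 0 and 1 of the stroma markers and 1 and 2 of the lymphoid markers. The part of such cell types or responses in the members' differences was not tested.

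**Figure D4:**
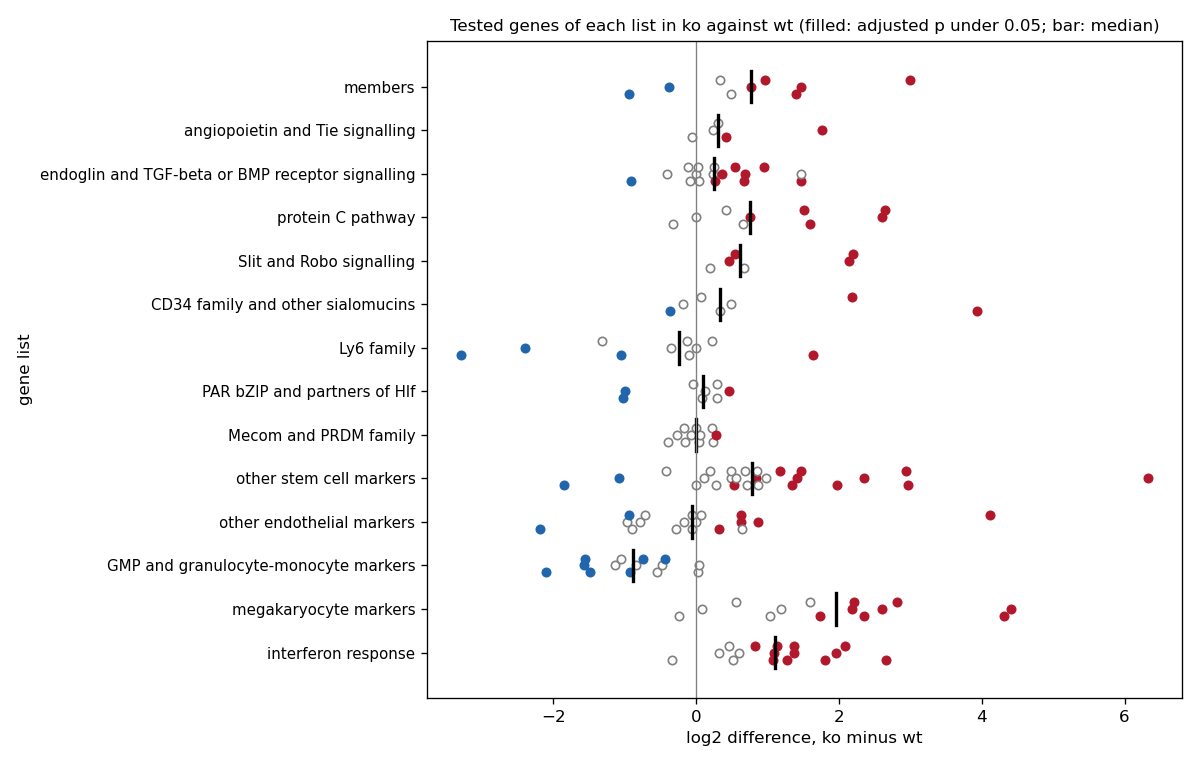
Log2 difference in ko minus wt GMP (horizontal axis) of the tested genes of each list (rows; members left out of the other lists); filled points passed an adjusted p of 0.05 and black bars are medians. The members' median is 0.77, that of other stem cell markers 0.77, that of other endothelial markers -0.06 and that of GMP markers -0.88.

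The genes whose pattern over the 12 arrays was nearest to a member, by the mean absolute difference of gene-centred levels among 14262 named genes, are given as a description. Gng11, a G protein subunit, was nearest to Tek (0.25 log2 units, where the median gene was at 1.21), followed by 4930412C18Rik (0.25). Jup, plakoglobin, and Tha1 were nearest to Emcn (0.19 and 0.20, median gene 0.89), and Sbno2 and Vps33b to Eng (0.10 and 0.11, median gene 0.47). Gm4827 and H2-Ob were nearest to Robo4 (0.21 and 0.24, median gene 0.89), and Cenpi and Parpbp to Procr (0.19 and 0.22, median gene 0.77). Ahdc1 and Siglecf were nearest to Tie1 (both 0.17, median gene 0.57), and Ift122 and Mgat1 to Cd34 (both 0.09, median gene 0.40).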

How the data were processed

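RNA of sorted GMP was labelled with Cy3 and hybridised to 12 one-colour Agilent arrays, per the labels' protocols. The software Agilent Feature Extraction subtracted the background to give a processed signal, with no scaling between arrays, per the file headers. Its version was 10.7.3.1 in a file header and 9.1 in the submitters' processing notes. A header version for each of the 12 arrays is not given here. The authors deposited the resulting spot intensities in scanner files. Their series matrix, used as an alternative, holds the same signal as a ratio to the array median, as found by comparison with the scanner values (column medians 0.91 to 0.94). Its 8 ko and wt columns matched another replicate of the same group.

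Outlier spots (129 to 207 per array) and control spots were left out, spots of a probe were averaged, and log2 intensity was taken minus the array's 75th percentile. Of 39429 probes, 27234 were named through a RefSeq accession (GRCm38.p6, names only), and probe coordinates (mm9) were copied from the files. A gene was tested by its brightest probe if well above background on every array of 1 group or more. One limma 3.58.1 fit in R 4.3.3 (4 group means and a slide term for ko and wt, 7 residual and 2.11 prior degrees of freedom) gave Benjamini-Hochberg adjusted p-values over 17905 genes, and it was tested on simulated data. The number of arrays limits the precision. A fold written as a lower bound sets the bright group's mean against the higher, per array, of the lowest signal well above background and the probe's own.

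The members and lists were chosen with earlier results of these data known. All members were named, with up to 4 called genes of each list in each of the first 2 comparisons, or else the gene with the smallest p, and the 2 genes nearest in pattern to each called member; Angpt1, Angpt2, Slit1, Robo1, Robo2, Kdr, Pecam1, Aplnr, Tgfb1 and Smad3 in ko GMP, Thbd in ko GMP and the markers below background were named after their values were seen. Some list genes that this rule takes are counted but not reported here by name. Same-numbered ko and wt arrays deviated together from their group means (correlations 0.37, 0.35, 0.18 and 0.67), and as they also share a slide the pairing comes from the data; within slides the correlation was -0.03 and 0.43. The replicate number as a block, other background corrections, scalings, filters and variance models, the samples in the fit and each array left out were tried. The normexp correction had an offset of 50 intensity units.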

Additional observations from a re-analysis of the deposited data

Results flagged for a closer look

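The difference between GMP with and without RUNX1 was of another size in transplanted than in native GMP for Tek, by 2.25 ± 0.35 (limma adjusted p = 0.00288). For Tek, RUNX1-ERt2 minus ERt2 was -0.75 and ko minus wt was 3.00. The same test gave 1.26 ± 0.31 for Emcn (limma adjusted p = 0.0211), where RUNX1-ERt2 minus ERt2 was -0.21 and ko minus wt was 1.47. Values of equal size and opposite sign would mean no difference between the systems. With normexp background correction both calls ended, with Tek at 1.42 (limma adjusted p = 0.123) and Emcn at 0.43 (adjusted p = 0.651). Normexp had an offset of 50 intensity units, where wt signals were 96.8 to 117 for Tek and 60.0 to 118 for Emcn. Only 2 arrays stand for each transplanted group, each on a slide of its own, so slide and group cannot be told apart there. No member had a single ko or wt array that stood apart by Dixon's test.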

How the results depend on the processing

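In ko against wt GMP, Tek, Eng and Procr kept their direction and call in all 21 other settings, Emcn and Robo4 in 20, Tie1 in 11 and Cd34 in 6. The cause of the lost calls was not tested, and with 2 arrays in each transplanted group the number of arrays limits the precision. In ko GMP 5 members were called higher, 3 with normexp and 3 within slide 2, and 4 to 5 without any 1 array. Of 2 called lower, 1 (Procr) remained with normexp, quantile normalization, the array median, the series matrix, no filter, the mean over probes, the replicate block, only the ko and wt arrays, and within slide 1, and 1 to 2 without any 1 array. The call of 1 member higher in RUNX1-ERt2 than in ERt2 GMP became 0 with normexp, the array median, the series matrix, no dim-probe filter, no slide term and the replicate block, and was 0 without any 1 array. Of members lower, 0 became 1 (Hlf) with the array median, the series matrix and the replicate block, and 0 to 2 without any 1 array. With crossed pairs in the block, chosen after seeing the data because same-numbered transplanted arrays deviated oppositely (correlation -0.19), 0 members were higher and 1 lower, with 2162 genes higher and 1922 lower. In ERt2 against ko GMP the 1 higher became 0 with normexp, no slide term and only these arrays, 2 with the mean over probes, and 0 to 1 without any 1 array, and the 3 lower 1 to 3 without any 1 array. In RUNX1-ERt2 against wt GMP the 4 lower became 1 to 4. For the difference between systems the 2 higher became 1 without the slide term, 1 with the replicate block, 0 with normexp, and 1 to 3 without any 1 array. The replicate block changed no member's call beyond those given in the report.

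Sign changes concerned differences that were not called. Ly6a was -0.20 in ko GMP within slide 2. In RUNX1-ERt2 against ERt2 GMP, leaving out 1 array at a time gave -0.40 to 0.038 for Eng and -0.52 to 0.10 for Emcn (both highest without ERt2 replicate 1) and -0.13 (without ERt2 replicate 2) to 0.70 for Tie1, with -0.042 without RUNX1-ERt2 replicate 2. In ERt2 against ko GMP Cd34 was 0.17 with the array median, 0.15 with the series matrix, 0.39 with the mean over probes (limma adjusted p = 0.0498), and -0.11 to 0.053 without any 1 array (above 0 without ko replicates 1 and 2 and ERt2 replicate 1), and Eng was -0.16 (without ERt2 replicate 1) to 0.28. Ly6a in RUNX1-ERt2 against wt GMP was -0.046 (without RUNX1-ERt2 replicate 1) to 1.01. For the difference between systems, Procr was -0.21 to 0.036 without any 1 array (above 0 without wt replicate 4 and ko replicate 3), and Robo4 -0.35 (without ERt2 replicate 2) to 0.95.

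Normexp called fewer genes: 923 higher and 1053 lower in ko GMP (2065 and 2471 in the main setting), 726 and 664 in RUNX1-ERt2 against ERt2 GMP (1830 and 1588), and 614 and 637 for the difference between systems (1686 and 1567). Within slides 1 and 2, 1074 and 945 genes were higher and 854 and 1035 lower in ko GMP; the array median gave 1397 lower and the series matrix 1328. Only the arrays compared gave 886 higher and 767 lower in RUNX1-ERt2 against ERt2 GMP. Normexp gave 2739 lower in ERt2 against ko GMP (4781), and 2231 higher and 2545 lower in RUNX1-ERt2 against wt GMP (3926 and 4323); no filter gave 10563 higher in ERt2 against ko GMP (5405). Scaling moved the median of all genes by 0.19 (array median) and 0.18 (series matrix) in ERt2 against ko GMP, by 0.13 and 0.11 in RUNX1-ERt2 against wt GMP, and normexp by -0.10 in ko against wt GMP and -0.13 in the difference between systems.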
